A study of Mus musculus with 4 samples.

Results

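Complement genes are examined here in mouse embryonic fibroblasts (MEF cells) that were wt or null for Top2β, the topoisomerase that relaxes DNA in cells that divide and in cells that do not. The set was given as a list of 9 genes whose RNA fibroblasts can make, C1ra, C1s1, Masp1, C2, Cfb, Cfd, C3, C4b and Serping1, and all 9 were found by symbol among the 54842 genes of the counts table. Total RNA without ribosomal RNA was sequenced from 2 libraries of untreated wild-type MEF cells and 2 libraries of untreated top2beta null MEF cells, grown in the same kind of serum-containing medium. The study compared transcripts of major satellite repeats with and without the enzyme, and the genes described here are a further readout of the same libraries. The Top2β-null cells were a gift from other laboratories, the methods cite separate earlier work for the MEF cells otherwise used, and no source says that both derive from littermates, so genotype and origin cannot be told apart. Nothing in the labels says whether replicates are separate cultures, so p-values measure the spread between libraries only.

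Complement is a cascade of plasma proteins that marks microbes and damaged cells. In the classical pathway the recognition protein C1q carries the proteases C1r and C1s, in the lectin pathway collectins and ficolins carry the MASP proteases, and both routes cleave C4 and C2 to build an enzyme that splits C3. The alternative pathway amplifies C3 cleavage with factor B, which factor D activates, while C1 inhibitor (Serping1) shuts down the C1 and MASP proteases. The liver supplies most of the plasma proteins, and fibroblasts are a known local source.

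The libraries held 133116830 to 149647278 counts each. Counts were scaled between libraries with edgeR's TMM factors, and a gene was called where its adjusted p was below 0.05, its absolute log2 fold change (Top2β-null over wt) above 1 and its mean normalized count above 100. Top2b had 18259 and 18465 normalized counts in wt MEF cells against 3879 and 3789 in Top2β-null MEF cells, in the direction of the labels. The paper reports from a Western blot that Top2β protein was absent from the Top2β-null cells. Fibroblast markers were abundant in every library, from 932600 to 1369400 normalized counts summed over 12 genes, although Lum had at most 3.96 normalized counts in any library. The sum was lower in the Top2β-null libraries (932600 and 937590) than in the wt libraries (1345700 and 1369400). Of the 12 genes, Pdgfra, Pdgfrb, Thy1 and Dcn were called higher in Top2β-null MEF cells, with Dcn at 7053 and 7239 against 226 and 223 normalized counts, and Col1a1 and Col3a1 were called lower.

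In Top2β-null MEF cells the RNA of the C1 proteases, of Masp1 and of C3 was several-fold higher than in wt MEF cells, while factor B and factor D RNA was lower by adjusted p. C1s1 was 34.3-fold, C3 10.5-fold, Masp1 8.26-fold and C1ra 5.36-fold higher. C4b was also higher by adjusted p but stayed rare, C2 differed by less than the test could resolve, and Serping1 was near 0 in all 4 libraries. Of the 9 genes, 8 passed the filter on low counts, 4 were called higher and 0 were called lower, by edgeR and by DESeq2 alike. In the same comparison 5.52% of the 25085 genes tested were called higher and 5.25% lower. By adjusted p alone, 5 of the 8 were higher and 2 lower, against 32.8% and 33.7% of all genes tested, and the count at an unadjusted p below 0.05 was also 5 and 2, against 34% and 34.9% of all genes tested. The median log2 fold change was 2.73 over the 8 genes and -0.0058 over all genes tested. C4b passed the filter through the Top2β-null libraries alone and Cfd through the wt libraries alone, so for these genes a difference between the groups came with passing. In RNA from whole cultures, fewer cells with a transcript and less of it per cell cannot be told apart.

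**Figure D1:**
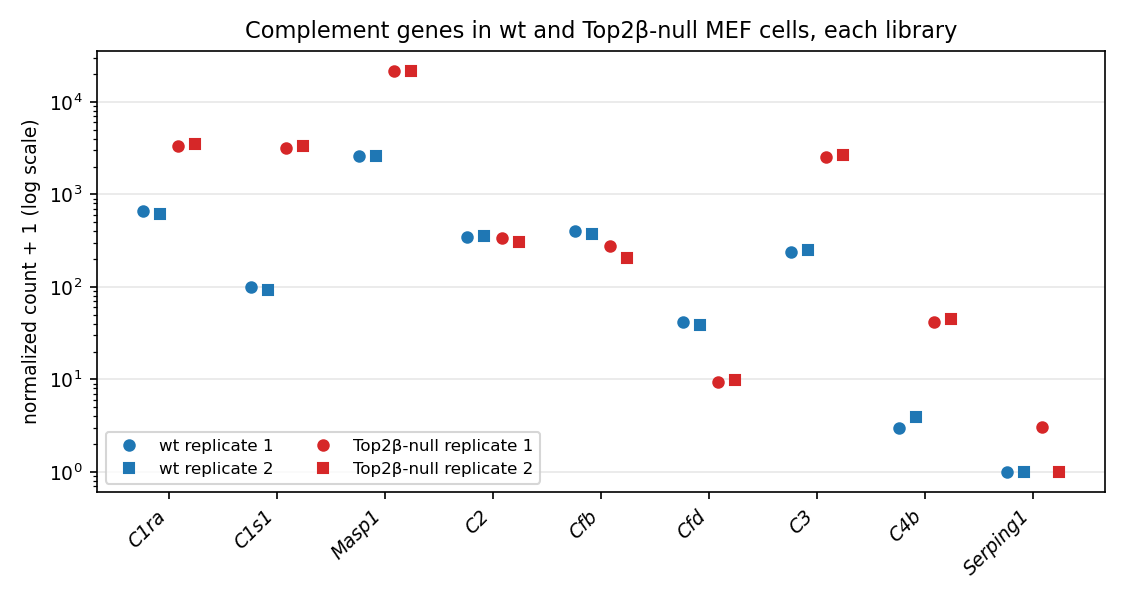
Normalized count plus 1 (log axis) of each of the 9 complement genes in wt (blue) and Top2β-null (red) libraries, with circles for replicate 1 and squares for replicate 2. The red points lie above the blue points for C1ra, C1s1, Masp1, C3 and C4b and below them for Cfb and Cfd, and Serping1 lies at the bottom of the axis in all libraries.

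The sequence before the start sites is shown for 3 genes that went different ways, C3 and C1s1, which were called higher, and Cfd, which was lower by adjusted p. RefSeq's table for GRCm38.p6 had an entry for 4 of the 9 genes, C1ra, C1s1, Cfd and C3. The windows are the 250 bases before the start on the gene's own strand, at chr17:57228137-57228386 (minus strand) for C3, chr6:124542360-124542609 (minus strand) for C1s1 and chr10:79890603-79890852 (plus strand) for Cfd. These 3 starts equal the 5′ ends of the genes in GENCODE, whereas that of C1ra lies 216 bases inside the gene, so its window is not shown. Capitals mark the letters that matched a searched motif.
C3: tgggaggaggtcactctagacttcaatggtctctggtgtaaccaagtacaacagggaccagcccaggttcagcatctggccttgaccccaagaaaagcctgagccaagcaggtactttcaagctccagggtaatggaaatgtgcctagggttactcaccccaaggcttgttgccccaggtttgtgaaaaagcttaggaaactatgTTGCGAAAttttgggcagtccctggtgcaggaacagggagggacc
C1s1: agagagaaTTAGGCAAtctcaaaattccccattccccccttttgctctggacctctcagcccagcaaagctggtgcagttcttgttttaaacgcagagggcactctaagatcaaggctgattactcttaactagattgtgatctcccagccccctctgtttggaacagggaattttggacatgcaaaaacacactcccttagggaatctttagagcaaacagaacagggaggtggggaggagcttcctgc
Cfd: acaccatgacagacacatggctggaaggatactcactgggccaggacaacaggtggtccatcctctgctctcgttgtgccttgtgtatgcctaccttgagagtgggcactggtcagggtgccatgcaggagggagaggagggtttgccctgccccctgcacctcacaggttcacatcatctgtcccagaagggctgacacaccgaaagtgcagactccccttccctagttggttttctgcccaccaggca

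Both strands were searched for 5 motifs, namely TTCNNNGAA (a gamma-activated site), GAAANNGAA (part of an interferon-stimulated response element), TTGCNNAA (bound by C/EBP factors), the TATA box hexamer and the NF-kB consensus. The C/EBP motif matched from -45 to -38 before the start of C3 and from -242 to -235 before the start of C1s1, and these matches overlapped no other motif. It was found in 2 of the 5 windows of these genes (C1s1 has 2 starts) and in 9.56% of the 32851 RefSeq windows of this length. None of the other 4 motifs was in the 5 windows, and they were in 7.02% (gamma-activated site), 7.13% (interferon element), 12.4% (TATA box) and 7.25% (NF-kB) of all windows. A match describes letters in this window and not a bound site.

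The proteases of C1 lie tail to tail on chromosome 6 of GRCm38, 6901 bases apart. C1ra (ENSMUSG00000055172.10, chr6:124512405-124523443, plus strand) encodes C1r, which cleaves itself and then C1s. It had 661 and 609 normalized counts in wt MEF cells against 3332 and 3472 in Top2β-null MEF cells. The groups did not overlap, with means of 635 ± 36.5 and 3402 ± 99.5 (SD, n = 2). The fitted log2 fold change came to 2.42 (SE 0.0535; edgeR, adjusted p = 1.0e-15), where SE is the standard error and p comes from the quasi-likelihood test with Benjamini-Hochberg correction across every gene and repeat family tested.

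C1s1 (ENSMUSG00000038521.17, chr6:124530345-124542359, minus strand) encodes C1s, the protease that cuts C4 and C2. There were 97.9 and 91.8 normalized counts in wt MEF cells against 3189 and 3316 in Top2β-null MEF cells. The difference was far larger than the spread in either group, with a log2 fold change of 5.10 (SE 0.0708; edgeR, adjusted p = 3.4e-18), and it was the largest fitted value of the 8 genes tested. The interval given below for the ratio of C4b (7.10 to 54.4) includes the 34.3-fold of C1s1. C1r and C1s work as partners in 1 complex, and their RNA levels drew together. Per kb of exon, C1s1 stood at 31.3 and 29.3 normalized counts in wt MEF cells beside 222 and 204 for C1ra, and at 1019 and 1060 in Top2β-null MEF cells beside 1118 and 1165. The log2 ratio of C1s1 to C1ra within a library, which needs no scaling between libraries, went from -2.81 ± 0.0168 to -0.13 ± 0.00231 (SD, n = 2). The difference of 2.68 was far larger than the spread in either group, but the ratio itself was not tested. An exact permutation test of a single value cannot give a p below 0.33 with 2 libraries against 2.

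Masp1 (ENSMUSG00000022887.9, chr16:23449417-23520815, minus strand) had the highest normalized count per kb of exon of the 9 genes in every library. The gene encodes MASP-1 and, by alternative splicing, MASP-3, the protease that matures factor D, and the table does not separate them. It had 2601 and 2594 normalized counts in wt MEF cells against 21297 and 21638 in Top2β-null MEF cells. The means were 2598 ± 4.66 and 21467 ± 241 (SD, n = 2), with a log2 fold change of 3.05 (SE 0.0279; edgeR, adjusted p = 3.4e-20). Its partner protease Masp2, from the list of other complement genes, had 1450 and 1425 normalized counts in wt against 1478 and 1436 in Top2β-null MEF cells, and the groups overlapped (log2 fold change 0.019, SE 0.0496, adjusted p = 0.753, edgeR).

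C3 (ENSMUSG00000024164.15, chr17:57203970-57228136, minus strand) encodes the protein on which all pathways converge, whose fragment binds covalently to targets. Its normalized counts were 237 and 252 in wt MEF cells against 2508 and 2636 in Top2β-null MEF cells. Both Top2β-null libraries lay above both wt libraries, at a log2 fold change of 3.39 (SE 0.0637; edgeR, adjusted p = 1.4e-16). Among 16650 other genes with a mean above 100 normalized counts, the 5 whose centred log2 profile over the 4 libraries was nearest to that of C3 were Tbx3, Ptchd1, Hoxa7, Tubb2b and Tcim, at root mean square differences of 0.0144 to 0.0418. With 4 libraries in 2 groups this likeness rests almost wholly on the size of the fold change, and the 5 genes are not complement genes.

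C4b (ENSMUSG00000073418.4, chr17:34728380-34743882, minus strand) encodes C4, the relative of C3 that the C1 and MASP proteases cleave. It had 2 and 3 counts in wt MEF cells against 39 and 45 in Top2β-null MEF cells. The ratio of summed counts, adjusted for library size, was 17.2, with an exact 95% interval from 7.10 to 54.4 that covers counting error only. The fitted log2 fold change was 4.04 (SE 0.478; edgeR, adjusted p = 1.6e-06), but the mean of 22.5 normalized counts lies under the cut-off, so C4b was not called. Even in Top2β-null MEF cells its level per kb was 7.09 and 7.83 normalized counts, far below C1s1.

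C2 and Cfb are neighbours on chromosome 17, 85 bases apart on the minus strand, and encode the related proteases that drive the classical and the alternative C3 convertase. C2 (ENSMUSG00000024371.14, chr17:34862604-34898265) had 347 and 355 normalized counts in wt MEF cells against 339 and 307 in Top2β-null MEF cells. Both Top2β-null libraries lay just below both wt libraries, but the log2 fold change of -0.12 was within 2 standard errors of 0 (SE 0.0918; edgeR, adjusted p = 0.257). Cfb (ENSMUSG00000090231.10, chr17:34856374-34862518) had 406 and 368 normalized counts in wt MEF cells against 279 and 205 in Top2β-null MEF cells. Both Top2β-null libraries were lower than both wt libraries, although they differed from each other by more than the wt libraries did. Its log2 fold change was -0.68 (SE 0.122; edgeR, adjusted p = 1.3e-04), which passed the adjusted p and not the cut-off on fold change. The value moved with the library left out, to -0.45 without Top2β-null replicate 2 and to -0.88 without Top2β-null replicate 1.

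Cfd (ENSMUSG00000061780.6, chr10:79890853-79892655, plus strand) encodes factor D, also called adipsin, which fat cells secrete in large amounts. There were 40.4 and 37.7 normalized counts in wt MEF cells against 8.29 and 8.91 in Top2β-null MEF cells. The groups did not overlap, and the log2 fold change was -2.16 (SE 0.376; edgeR, adjusted p = 9.8e-05), with a mean of 23.8 normalized counts that is too low for a call. The log2 ratio of C3 to Cfb per kb went from -1.52 ± 0.162 in wt to 2.56 ± 0.364 in Top2β-null MEF cells (SD, n = 2), so that C3 moved from below Cfb to above it.

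Serping1 (ENSMUSG00000023224.12, chr2:84765387-84775444, minus strand), which encodes the inhibitor of C1r, C1s and the MASP proteases, had 0 and 0 counts in wt MEF cells against 2 and 0 in Top2β-null MEF cells. All 4 values lie at or under the floor of 3 counts that a count of 0 allows, which is 2.90 to 3.11 normalized counts, so no fold change is given and the gene was not detectable in either genotype at this depth.

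**Figure D2:**
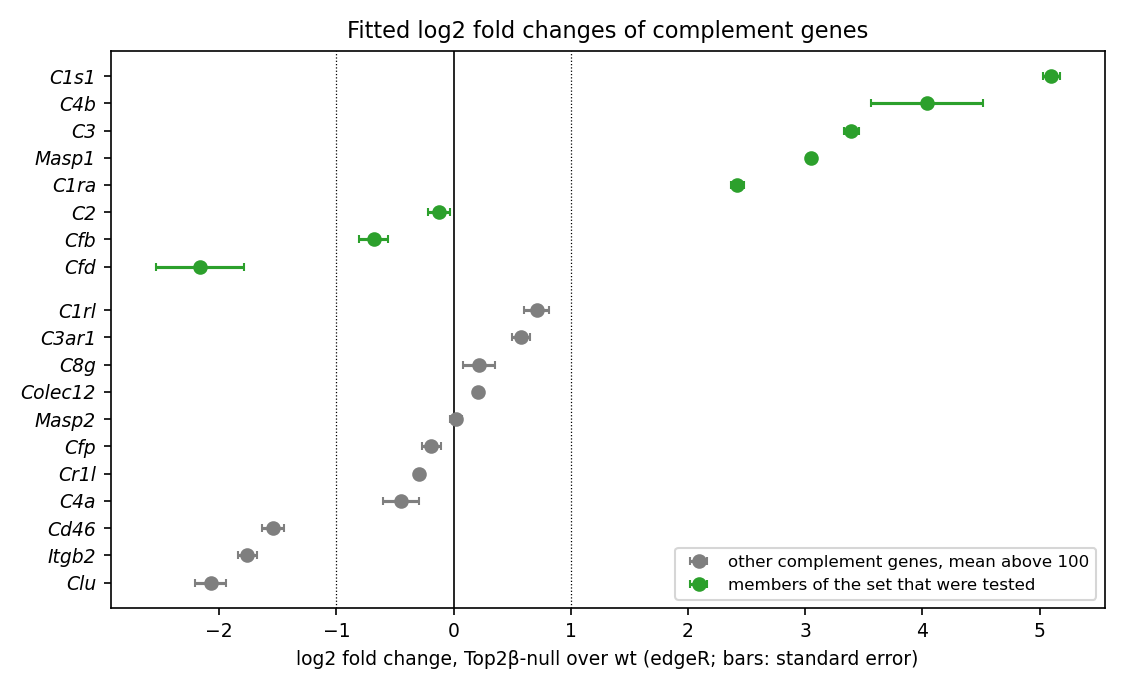
Fitted log2 fold change (x axis, Top2β-null over wt) with its standard error for the 8 tested genes of the set (green) and for the 11 other complement genes with a mean above 100 normalized counts (grey), with dotted lines at -1 and 1. The green points run from -2.16 for Cfd to 5.10 for C1s1, and no grey point lies above 1.

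The summed level of the set was higher in Top2β-null MEF cells, mostly through Masp1, C1ra, C1s1 and C3, and the shares of the genes differed. Summed per kb of exon, the 9 genes had 841 and 810 normalized counts in wt MEF cells against 4993 and 5107 in Top2β-null MEF cells. Masp1 made up 31.4% and 32.6% of the sum in wt against 43.4% and 43.1% in Top2β-null MEF cells. The share of C1s1 went from 3.72% and 3.62% to 20.4% and 20.8%, and that of C3 from 5.48% and 6.05% to 9.77% and 10.04%. By contrast, Cfb went from 17.1% and 16.1% to 1.98% and 1.42%, and C2 from 10.7% and 11.3% to 1.75% and 1.55%. The level of C2 itself was 89.7 and 91.8 normalized counts per kb in wt against 87.5 and 79.3 in Top2β-null MEF cells, so its lower share came with the larger sum. The order of levels per kb in wt MEF cells was Masp1, C1ra, Cfb, C2, C3, Cfd and C1s1, with no overlap between neighbours over the 2 libraries, although C3 (46.1 and 49.0) and Cfd (43.8 and 40.9) lay closer to each other than their own libraries did. C4b and Serping1 came last in wt, both at or under the floor of 3 counts, so they cannot be ordered. In Top2β-null MEF cells it was Masp1, C1ra, C1s1, C3, followed by Cfb and C2, whose libraries overlapped (98.6 and 72.6 for Cfb, 87.5 and 79.3 for C2), and by Cfd, C4b and, at the floor, Serping1. Lengths are the union of annotated exons, and the shares, the order of C2 and Cfb and that of C1ra and C1s1 depended on this choice. Masp1 had 487 and 485 normalized counts per kb of its longest coding transcript in wt against 3984 and 4048 in Top2β-null MEF cells. Its shares would be larger on that scale. Per kb of the longest coding transcript C2 (131 and 135) and Cfb (147 and 134) overlapped in wt MEF cells, while in Top2β-null MEF cells C2 (128 and 116) lay above Cfb (101 and 74.5). On the same scale C1ra (1118 and 1165) and C1s1 (1082 and 1126) overlapped in Top2β-null MEF cells. The levels of Cfb and C2 leave out what was counted under the overlapping gene Gm20547 (382 and 360 normalized counts in wt MEF cells). With those counts Cfb could stand higher in the order, so the ranks and shares of Cfb and C2 are not settled.

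**Figure D3:**
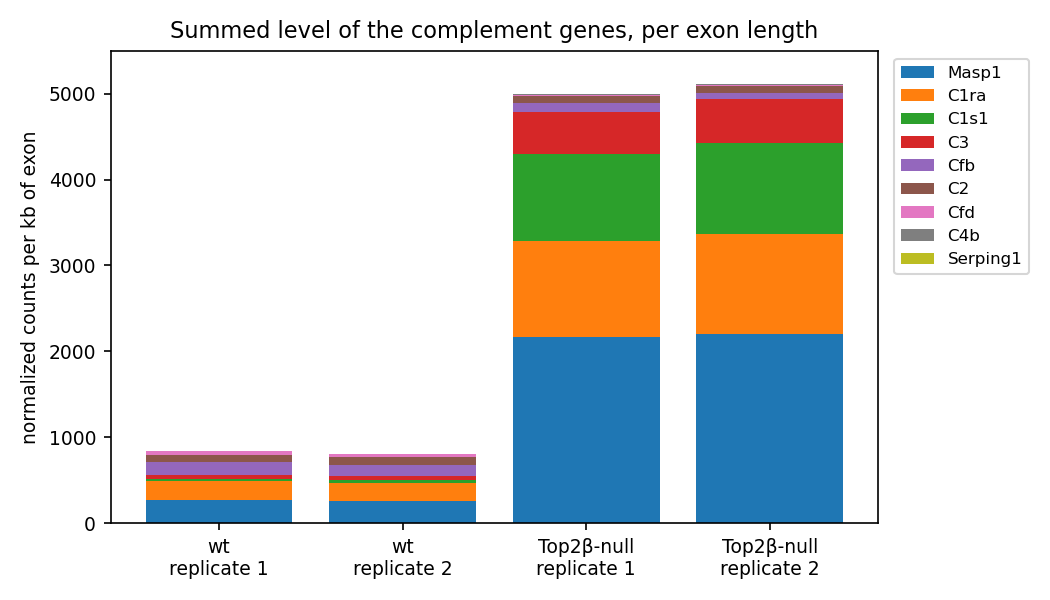
Stacked bars of normalized counts per kb of exon for the 9 complement genes in each library. The bars reach 841 and 810 in wt MEF cells against 4993 and 5107 in Top2β-null MEF cells, and most of the added height is Masp1, C1ra and C1s1.

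Several of these genes share sequence with a copy or overlap another gene, and reads that align to both cannot be separated in the table. Of the 150-base windows of the longest coding transcript, 26.3% of C1ra recur word for word in C1rb, 2.86% of C1s1 in C1s2 and 8.26% of C4b in C4a, while C3, Masp1, Cfd and Serping1 shared none with a transcript of another gene. C1rb and C1s2 were higher by adjusted p too, although C1s2 passed the filter on low counts through the Top2β-null libraries alone, with 25.2 and 14.5 against 91.1 and 101 normalized counts for C1rb and 3.03 and 6.76 against 66.3 and 59.4 for C1s2. Adding each copy to its partner gave log2 fold changes of 2.42 for C1ra and 5.05 for C1s1. C4a, the sex-limited copy of C4, was the more abundant C4 gene, with 179 and 243 normalized counts in wt against 157 and 153 in Top2β-null MEF cells. The share of C4b in the counts of C4b and C4a was 1.12% and 1.18% in wt against 20.4% and 22.6% in Top2β-null MEF cells, and the sum of both had a log2 fold change of -0.12 (SE 0.143; edgeR, adjusted p = 0.500), so total C4 counts did not pass the test.

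C1s1 also overlaps the annotated antisense gene Gm16567 over all 576 bases of the latter's exons. Gm16567 had 21.2 and 17.4 normalized counts in wt against 667 and 670 in Top2β-null MEF cells, and it held a near constant share of the counts of both genes (15.9% to 17.8%). The kit marks strand but the sources do not say whether strand was used in counting, so the 2 genes cannot be told apart, and their sum had a log2 fold change of 5.10. Cfb and C2 are spanned on the same strand by Gm20547, a read-through gene that shares 80.7% of the 150-base windows of Cfb and 48.3% of those of C2. Gm20547 had 382 and 360 normalized counts in wt against 258 and 193 in Top2β-null MEF cells, which was 48.1% to 49.5% of the counts of Cfb and Gm20547 together. The sum of Cfb, C2 and Gm20547 was lower in Top2β-null MEF cells (log2 fold change -0.49, SE 0.0793; edgeR, adjusted p = 4.8e-05).

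**Figure D4:**
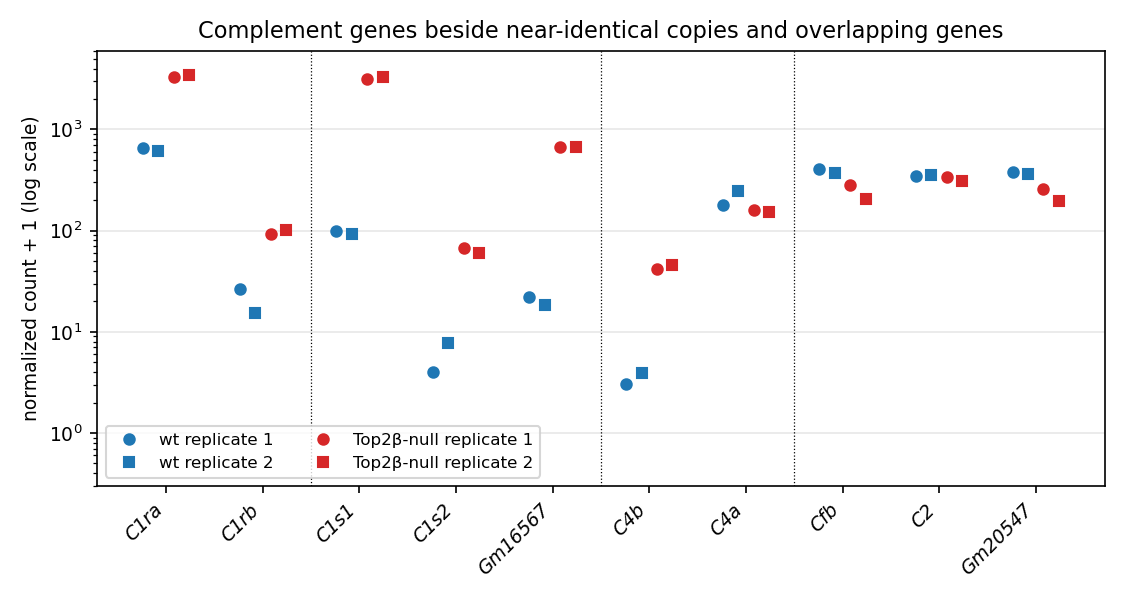
Normalized count plus 1 (log axis) per library for complement genes beside their near-identical copies (C1rb, C1s2, C4a) and overlapping genes (Gm16567, Gm20547), with wt in blue and Top2β-null in red. C1rb, C1s2 and Gm16567 are higher in the Top2β-null libraries as C1ra and C1s1 are, C4a lies above C4b in every library, and Gm20547 follows Cfb.

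The other 48 genes of the pathway, listed by role, showed where the rest of the cascade stood. All 48 were in the table, 25 passed the filter, 0 were called higher and 3 lower, again against 5.52% and 5.25% of all genes tested. Only 11 of the 25 had a mean above 100 normalized counts and could be called, against 16656 of the 25085 genes tested. Their median log2 fold change was 0.21. At an unadjusted p below 0.05, 10 were higher and 10 lower, beside 34% and 34.9% of all genes tested, and DESeq2 also called 0 higher and 3 lower. Of the 25 genes, 5 passed the filter through the Top2β-null libraries alone and 2 through the wt libraries alone. The subunits of C1q (C1qa, C1qb and C1qc), which carry C1r and C1s, had 0 counts in all 4 libraries. The membrane collectin Colec12 was abundant, with 8814 and 8697 normalized counts in wt against 10041 and 10233 in Top2β-null MEF cells (log2 fold change 0.21, adjusted p = 2.0e-06, edgeR). C1rl, a relative of C1r, had 193 and 184 normalized counts in wt against 313 and 303 in Top2β-null MEF cells (log2 fold change 0.71, adjusted p = 2.4e-05, edgeR). Of the 6 genes listed under the terminal pathway, which forms the membrane pore, only C8g passed the filter, with 146 and 161 against 169 and 188 normalized counts (adjusted p = 0.183, edgeR), and the other 5 genes had at most 3.11 normalized counts in any library. Hc, the gene of C5, was listed with the convertase proteins and also passed the filter. It had 6.06 and 14.5 normalized counts in wt against 19.7 and 13.9 in Top2β-null MEF cells (adjusted p = 0.221, edgeR).

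The 3 genes called lower were Clu, which encodes clusterin, a chaperone that blocks pore assembly, Cd46, which encodes a membrane cofactor for the cleavage of C3b and C4b, and Itgb2, which encodes the beta chain of the leukocyte integrins that include complement receptors. Clu had 405 and 371 normalized counts in wt against 81.8 and 102 in Top2β-null MEF cells (log2 fold change -2.07, adjusted p = 6.3e-10, edgeR). Cd46 had 546 and 522 against 193 and 175 (log2 fold change -1.54, adjusted p = 4.2e-10, edgeR), and Itgb2 had 736 and 713 against 220 and 208 (log2 fold change -1.76, adjusted p = 1.2e-11, edgeR). For each of the 3 both Top2β-null libraries lay below both wt libraries. Cr1l (also called Crry), the broadly expressed membrane regulator of C3 in mice, had 4047 and 4209 normalized counts in wt against 3371 and 3377 in Top2β-null MEF cells (log2 fold change -0.29, adjusted p = 2.4e-06, edgeR). Cfp, which encodes properdin, the stabilizer of the alternative convertase, had 468 and 443 against 400 and 400 (log2 fold change -0.19, adjusted p = 0.0483, edgeR). C3ar1, the receptor for the C3a fragment, was among the receptors that were higher by adjusted p, with 440 and 476 against 723 and 647 normalized counts (log2 fold change 0.58, adjusted p = 6.7e-06, edgeR). Cd59a, which encodes an inhibitor of the pore and was picked after its values were seen, had 60.6 and 36.7 normalized counts in wt against 130 and 130 in Top2β-null MEF cells (adjusted p = 3.0e-05, edgeR).

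Complement genes are known to be induced by interferons, by the interleukin 6 family and by interleukin 1 and tumour necrosis factor, so 20 genes of these routes were examined. Of these, 16 passed the filter, 9 were called higher and 0 lower, with a median log2 fold change of 1.25, beside 5.52% and 5.25% of all genes tested. At an unadjusted p below 0.05, 13 were higher and 2 lower, beside 34% and 34.9% of all genes tested, and DESeq2 called 9 higher and 0 lower. Il6 had 5.05 and 8.69 normalized counts in wt against 312 and 347 in Top2β-null MEF cells (log2 fold change 5.55, SE 0.230, adjusted p = 3.1e-12, edgeR), and it passed the filter on low counts through the Top2β-null libraries alone. Il1r1, the receptor of interleukin 1, went from 305 and 323 to 4253 and 4255 normalized counts (log2 fold change 3.76), and Osmr, the receptor subunit of oncostatin M, from 3872 and 4070 to 17269 and 16893 (log2 fold change 2.10). The factors Cebpd (log2 fold change 2.45), Stat3 (1.62), Cebpb (1.26) and Irf1 (1.23) and the receptor Tnfrsf1a (1.46) were also called. For all 9 both Top2β-null libraries lay above both wt libraries. The cytokine genes Ifng, Ifnb1, Il1b and Tnf had at most 2.90 normalized counts in any library, and Ifngr1 was lower by adjusted p (4684 and 4477 against 2433 and 2538). Whether any of these genes has a part in the complement values was not tested.

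**Figure D5:**
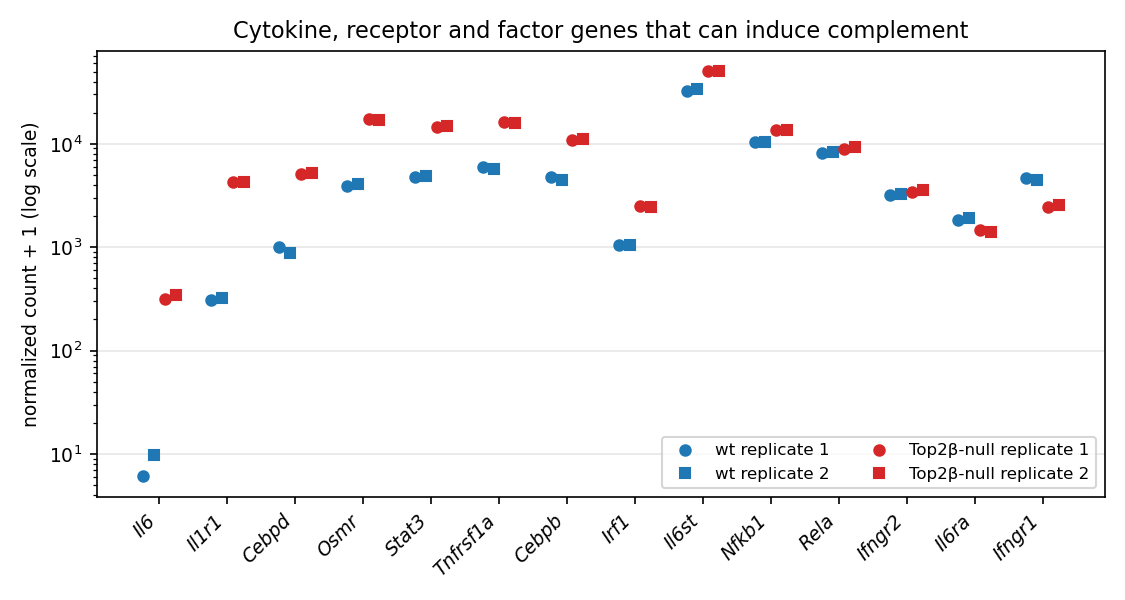
Normalized count plus 1 (log axis) per library for 14 genes of the inducer list with a mean above 100, ordered by log2 fold change, with wt in blue and Top2β-null in red. Il6 and Il1r1 at the left show the widest gaps, and Il6ra and Ifngr1 at the right are lower in the Top2β-null libraries.

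Markers of other cells that make complement were examined beside these results. Of 8 hepatocyte markers, Alb, Ttr, Ahsg, Serpina1a, Fgb and Tat had at most 2.07 normalized counts in any library, and Apoa1 at most 10.4. Apob alone was called higher, with 28.3 and 29.9 normalized counts in wt against 469 and 478 in Top2β-null MEF cells, so that the sum of the list was 36.3 and 37.7 against 483 and 484. Of 12 markers of macrophages and other leukocytes, Adgre1, Tyrobp, C1qa, C1qb and C1qc were at 0 in all 4 libraries, Ptprc had at most 6.76 normalized counts, Cd68 was the most abundant in wt (1641 and 1688 against 302 and 289 in Top2β-null MEF cells), Csf1r the most abundant in Top2β-null MEF cells (740 and 767 in wt against 962 and 978), and the sum was 3210 and 3282 in wt against 2087 and 2110 in Top2β-null MEF cells. Endothelial markers summed to 167 and 164 in wt against 253 and 259 in Top2β-null MEF cells (6 genes, Kdr called higher), and epithelial markers to 73.7 and 72.4 against 22.8 and 25.8 (6 genes, none called). The higher endothelial sum came with Kdr (71.7 and 68.6 in wt against 203 and 205 in Top2β-null MEF cells). Tek, of the same list, was lower by adjusted p (43.4 and 34.8 against 9.32 and 3.96 normalized counts). The part of these markers in the complement values was not tested. Itgam, picked after its values were seen, had 2 counts over the wt and 56 over the Top2β-null libraries. It passed the filter on low counts through the Top2β-null libraries alone.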

How the data were processed

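Per the paper's methods, the authors trimmed the read pairs (Trim Galore!), mapped them to mm10 (STAR, allowing several alignments per read) and assigned them to Gencode genes and RepeatMasker families (TEtranscripts). Deposited were unnormalized counts per gene and repeat family, with 1 column per library. The mode and strand setting of the counting are not given in the sources used here.

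Column names gave each library's genotype and replicate through the labels. Of 54842 gene identifiers, 54409 matched GENCODE M21 without version number, which gave symbols, GRCm38 positions and exon lengths. A minimum of 10 counts in 2 or more libraries was required, and the features left (25085 genes, 1481 repeat families) were fitted with edgeR 4.0.16 (R 4.3.3, quasi-likelihood test, TMM factors, genotype as the only term), with Benjamini-Hochberg adjustment over all 26566. Standard errors were obtained by dividing the log2 fold change by the square root of F. The cut-offs for a call are those of the paper's methods. Normalized counts are scaled to the geometric mean effective library size. DESeq2 1.42.0 and other filters, scalings and left-out libraries were tried. The 2 libraries of a genotype differed by more than counting error, with a chi-square over its degrees of freedom of 3.65 for wt and 5.07 for Top2β-null. This does not tell separate cultures from repeated preparations of the same culture.

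The genes of the set and all lists were chosen with earlier results of these data known. Named were all 9 genes, Top2b, copies and overlapping genes, other pathway genes that were called or had a mean above 100 normalized counts, called genes of the inducer list, the most abundant markers and those at 0, and the 5 genes nearest to C3 in log2(normalized count + 1). The sums of overlapping genes were added after the data were seen. Intervals and floors cover counting error only. A few items that the naming rule would include are not reported here.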

Additional observations from a re-analysis of the deposited data

How the results depend on the processing

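C1ra, C1s1, Masp1 and C3 were called higher, and no gene of the set lower, with DESeq2, scaling to the total count, TMM without repeat families, no filter on low counts, the replicate block and each library left out. With at least 100 counts in every library 3 of them were called, because C1s1 was no longer tested. Where adjusted p alone decided (32.8% of all genes tested higher, 33.7% lower), 5 genes of the set were higher and 2 lower, and 10 other complement genes were higher and 9 lower. Of 50 values of single genes from fits that kept all libraries, 49 kept their direction and side of the cut-offs and 1 was reversed, C4b at -0.12 when summed with C4a, which holds most counts of that sum. All 28 values with a library left out kept both, but Cfd without either wt library and C4b without either Top2β-null library fell under the filter and could not be tested. Other complement genes called higher ranged from 0 to 1 with a library left out, the 1 being Cd59a without wt replicate 2. Leaving out libraries moved the log2 fold change of Cfb from -0.88 (without Top2β-null replicate 1) to -0.45 (without Top2β-null replicate 2).

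Both genotypes have replicates 1 and 2. Across 17952 features, the libraries that share a number deviated from their group means with a correlation of 0.0207, so pairing by number has no basis here. The fit with the replicate block gave 3.39 for C3, 5.10 for C1s1 and -0.69 for Cfb, and it changed no call. Serping1, C4b in wt and Cfd in Top2β-null MEF cells are limited by depth, with fewer than 10 counts per library.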
